A study of Arabidopsis thaliana with 3 samples.

Results

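The genes described here are 41 Arabidopsis genes that make, activate, degrade, perceive or respond to the hormone cytokinin, out of 27444 nuclear protein-coding genes. They are 9 IPT, 7 LOG, 7 CKX, 3 AHK, 5 type-B ARR and 10 type-A ARR genes, and all 41 were found in the TAIR10.1 annotation by symbol or synonym. LOG2 is also a synonym of an unrelated gene, and the identifier AT2G35990 decided. Their binding by SEP3-AGIAP1 was read from the single peak list of the series, which holds 3552 regions of 400 bp. SEP3-AGIAP1 is a complex of the floral MADS transcription factors (TFs) SEP3 and AG, in which the I domain of AG, next to the DNA-binding MADS domain, was replaced with that of AP1. Both proteins were made together in vitro, SEP3 with a FLAG tag and the chimera with a 5xMyc tag, purified one tag after the other and incubated with sheared genomic DNA from Arabidopsis seedlings grown in long days, an assay called seq-DAP-seq. All 3 samples are replicates of this complex, labelled SEP3-AG(API-I), and the list combines them. It gives positions and no heights, so that a peak is present or absent. Neither depth nor spread between replicates can be read from the list, and no test was run. The paper reports read and peak counts for each replicate, and correlations between replicates. The DNA was naked, and binding in the plant and expression were not measured in these data.

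Cytokinins are made by isopentenyltransferases (IPT), released as active bases by the LONELY GUY enzymes (LOG) and broken down by cytokinin oxidases (CKX). The histidine kinase receptors AHK2, AHK3 and AHK4 pass the signal through phosphotransfer proteins to the type-B response regulators (ARR), which are TFs. These activate, among others, the type-A ARR genes, whose products dampen the response. In the shoot, cytokinin maintains stem cells, and AG is known to end stem cell activity in the floral meristem.

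Peaks were found at genes of synthesis, activation, degradation and response. Of the 3 receptor genes none had one, where 0.724 would at the share of genes of like window length. Of the 41 members, 13 (31.7%) had the midpoint of a peak in their window, which reached 3000 bp before the start and 1000 bp past the end, namely IPT2, IPT6, LOG1, LOG3, LOG7, CKX1, CKX7, ARR1, ARR2, ARR12, ARR5, ARR8 and ARR17. Over all protein-coding genes this share was 18.0%. Longer windows meet more peaks, and at the share of genes of like window length (20 bins of equal size), 8.09 of the 41 members would have a peak, or 19.7%. The members were chosen with earlier results of these data known, so this comparison is a description only. The 28 others counted as unbound. Each of the 13 had a single peak. Of all bound genes 12.2% had more than 1, a share at which few of 13 genes would. The count depended on the window. With a window that began 1000 bp before the gene and closed at its end, 5 members had a peak (IPT2, LOG3, ARR2, ARR5 and ARR8), where 4.70 would at the share of genes of like length and 9.91% of all genes had one. With peaks assigned only to the closest start, 8 members and 11.7% of all genes had a peak.

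**Figure D1:**
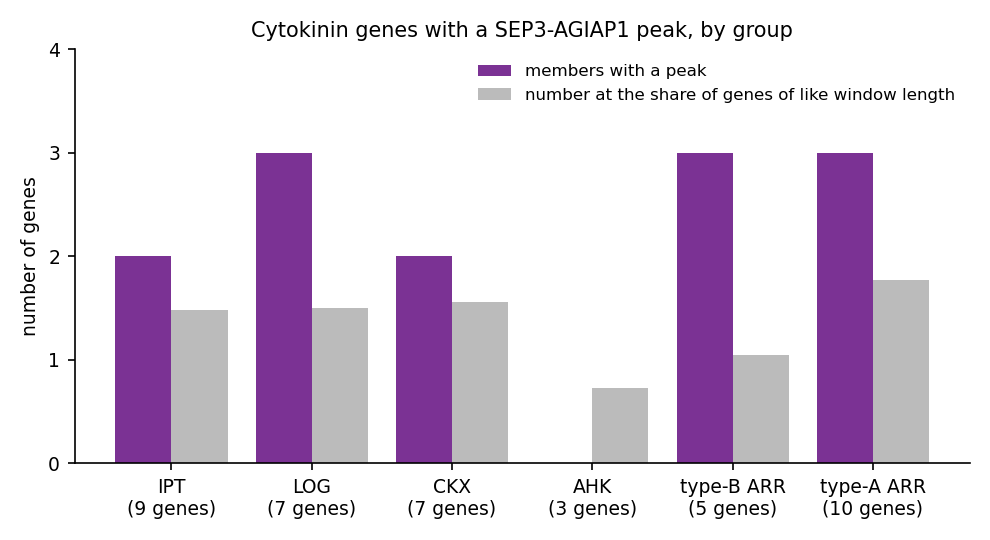
Number of members with a peak in each group (purple) beside the number that the share of protein-coding genes of like window length would give (grey); the replicates are combined, so there are no error bars. LOG and the type-B ARR genes stood highest above the grey bar, with 3 of 7 and 3 of 5 genes. No AHK gene had a peak, where 0.724 of 3 would. Every group is within 2 genes of its grey bar.

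By group, 3 of 5 type-B ARR genes had a peak where 1.05 would at the share of genes of like length, and 3 of 7 LOG genes where 1.496 would. In the other groups the counts were 3 of 10 type-A ARR genes against 1.77, 2 of 9 IPT genes against 1.48, 2 of 7 CKX genes against 1.56 and 0 of 3 AHK genes against 0.724. Each count is within 2 genes of the number at like length, and no group is set apart by these differences.

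The best site of each peak shows what the complex had before it at these genes. MADS TFs bind the CArG box, which opens with CC, closes with GG and has 6 A or T between them. Sites of 16 bp were scored with a palindromic matrix built from all 3552 peaks, as log2 ratios to the base composition (bits). They are read 5′ to 3′ on the strand of the gene from the TAIR10.1 sequence, and the capitals mark the 10 bp core in the place of the CArG box.
IPT6: tttCCATTTAGGGaaa
ARR12: tttCCAAAAATAGgaa
CKX1: ttaCCCTAAATAGtaa
ARR8: tttCCAGAAAAAGaaa
ARR5: ttaCCAAATATAGtag
ARR2: ttcCTATAATTAGaaa
LOG1: tgtCCTAAAATAGaaa
LOG7: tagCCAAAAAAAGaaa
LOG3: ttaCTAAAAAAGGaag
CKX7: ttaCTTTATTGGGaca
IPT2: tttCCTGATTCAGtaa
ARR17: tttCTTTAATGGGttt
ARR1: ttaACAAATGAAGaca
The sites stand in order of score, from 16.3 bits at IPT6 to 5.71 bits at ARR1. None of these 13 cores is a full CArG box, and 6 of them differ from it at 1 position. TT opens or AA closes each of the 13 sites, as it does 90.5% of the best sites of all peaks, and both hold in 6 of 13 against 32.1% of all peaks.

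Among the genes of synthesis, the highest-scoring site was that of IPT6 (AT1G25410, chromosome 1 from 8914191 to 8915219, minus strand), an adenylate isopentenyltransferase. Its peak at chr1:8917136-8917535 was centred 2117 bp upstream, and the site at chr1:8917324-8917339 lay 4 bp from the centre. At 16.3 bits it ranked 53 among the best sites of all 3552 peaks. The midpoint also lies in an intron of the neighbouring gene AT1G25420, whose start is nearer, at 1421 bp. IPT2 (AT2G27760, chromosome 2 from 11824772 to 11827609, plus strand) codes for a tRNA isopentenyltransferase, the class of enzyme behind cis-zeatin. Its peak at chr2:11823668-11824067, 904 bp upstream, was the closest to a start among the upstream peaks of the members. Its best site of 10.6 bits lay 172 bp from the centre, near the edge of the peak, and the best within 50 bp of the centre, ataCTCAAATAGGtta, scored 7.04 bits. Of the other 7 IPT genes (IPT1, IPT3, IPT4, IPT5, IPT7, IPT8 and IPT9) none had a peak.

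LOG1, LOG3 and LOG7, whose enzymes turn cytokinin nucleotides into the free bases, had a peak. LOG1 (AT2G28305, chromosome 2 from 12081023 to 12084678, plus strand) had the peak with the most sites, 5 above 7.81 bits, a threshold passed once in 2000 bp of genomic sequence. Among these 5, the sites that start at chr2:12078481 and chr2:12078482 overlap and are not separate boxes. The peak at chr2:12078353-12078752 lay 2470 bp upstream of LOG1 and in the window of no other gene. It was the only peak of the 13 with a full CArG box, CCTAAAATGG at 10.8 bits, 64 bp from the centre. The best site, with CCTAAAATAG as its core (12.4 bits), lay 36 bp from the centre on the other side. From the first of these sites to the last base of the second (chr2:12078481-12078596), with both cores in capitals, the sequence is shown because it joins the full box with the higher-scoring near match.
LOG1 pair: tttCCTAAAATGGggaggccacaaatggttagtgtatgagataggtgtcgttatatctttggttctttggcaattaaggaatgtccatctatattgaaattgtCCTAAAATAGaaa
The cores lay 90 bp apart between their inner edges, and between them a site with 1 mismatch, ttgGCAATTAAGGaat, scored 8.25 bits. LOG7 (AT5G06300, chromosome 5 from 1921548 to 1925407, minus strand), known for a role in the shoot apical meristem, had a peak 1324 bp upstream at chr5:1926531-1926930, with a site of 11.8 bits. The peak of LOG3 (AT2G37210, chromosome 2 from 15623928 to 15627032, minus strand), at chr2:15623936-15624335, had its midpoint in the 3′ UTR and a site of 11.7 bits, and the start of AT2G37200 is nearer, at 976 bp. LOG2, LOG4, LOG5 and LOG8 had no peak.

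Of the CKX genes, CKX1 (AT2G41510, chromosome 2 from 17314412 to 17317354, plus strand) and CKX7 (AT5G21482, chromosome 5 from 7226606 to 7230304, plus strand) had a peak upstream, and CKX2, CKX3, CKX4, CKX5 and CKX6 had none. CKX7 is the cytosolic form of the enzyme, and CKX3 and CKX5 are the forms known for limiting the size of floral meristems. The CKX1 peak at chr2:17311509-17311908 lay 2703 bp upstream, the farthest of the members. It held 2 sites with the same 10 bp core, of 13.3 and 12.03 bits, 20 bp apart between the inner edges. The stretch chr2:17311688-17311733 shows the repeat.
CKX1 pair: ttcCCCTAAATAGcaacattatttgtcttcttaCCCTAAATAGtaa
The CKX7 peak at chr5:7224263-7224662, 2143 bp upstream, held a single site of 10.7 bits. A site of 13.02 bits in an intron of CKX7, ttaCTTTATGTGGaaa at chr5:7229538-7229553, lay in no peak.

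The 3 receptor genes AHK2, AHK3 and AHK4 had the longest windows of the members, 9523 to 10725 bp, and no peak. Of genes with windows of like length, 24.1% had a peak. The receptor windows held 24 matrix sites above 7.81 bits and 3 full CArG boxes. The best site of each of the 3 windows scored 9.17 to 11.8 bits, and the nearest peaks lay 5286 to 39269 bp beyond the windows.

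Peaks were found at 3 of the 5 type-B ARR genes, each in a different place. ARR1, ARR10 and ARR12 are known as the main type-B regulators of the cytokinin response. ARR12 (AT2G25180, chromosome 2 from 10724301 to 10727272, minus strand) had the second-highest site of the members, 14.1 bits, in a peak at chr2:10723708-10724107 with its midpoint 393 bp downstream of the gene and in the 3′ UTR of the neighbouring PKL, which codes for a chromatin remodeller. The peak of ARR2 (AT4G16110, chromosome 4 from 9112686 to 9116164, plus strand), at chr4:9115835-9116234, had its midpoint in the 3′ UTR, with a site of 12.5 bits. The midpoint was about as far from the start of COBL7 (3344 bp) as from that of ARR2 (3349 bp). The peak of ARR1 (AT3G16857, chromosome 3 from 5755714 to 5759443, plus strand), at chr3:5753698-5754097 and 1816 bp upstream, lay in the window of no other gene and was the only one of the 13 with no site above 7.81 bits, which held for 15.4% of all peaks. Its best site, 19 bp from the centre, scored 5.71 bits, at percentile 3.18 of all peaks, and 3 full CArG boxes in the window of ARR1 lay outside the peak. ARR10 and ARR11 had no peak.

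Among the type-A ARR genes, which are induced by cytokinin within minutes, ARR5 and ARR8 had a peak with its midpoint in an intron. ARR17 had one upstream. ARR5 (AT3G48100, chromosome 3 from 17758427 to 17760950, minus strand), a widely used marker of the cytokinin response, had its peak at chr3:17759717-17760116. The midpoint lay in intron 4 of 4, and the peak held sites of 12.7 and 10.7 bits. ARR8 (AT2G41310, chromosome 2 from 17221840 to 17224880, plus strand) had its peak at chr2:17222628-17223027, with the midpoint in intron 3 of 5. Its best site (13.3 bits) lay 3 bp from the centre, and a second site of 9.15 bits lay 34 bp from it between the inner edges of the cores. The stretch chr2:17222779-17222838 is printed because both cores lie within it, near the centre of the peak.
ARR8 pair: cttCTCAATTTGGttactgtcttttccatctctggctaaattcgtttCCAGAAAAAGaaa
The peak of ARR17 (AT3G56380, chromosome 3 from 20905264 to 20906397, plus strand), at chr3:20903193-20903592, lay 1871 bp upstream of ARR17 and 313 bp from the start of AT3G56370. Its best site scored 7.89 bits, just above the threshold, 83 bp from the centre. The type-A genes form 5 pairs of close relatives. ARR5 had a peak and ARR6 none, ARR8 had a peak and ARR9 none, ARR17 had a peak and ARR16 none, and neither gene of the pairs ARR3 and ARR4, and ARR7 and ARR15, had one. With any overlap of the peak counted, ARR9 had a peak as well as ARR8, and with 5000 bp upstream so did ARR6 and ARR9.

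**Figure D2:**
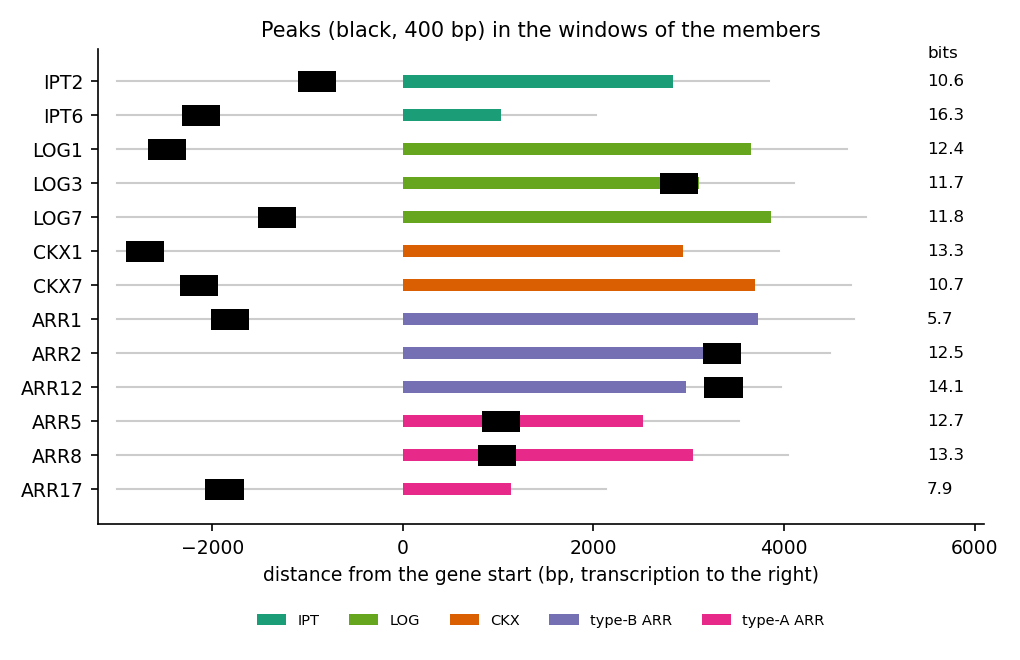
Position of the peak (black, to scale) along the window (grey line) of each of the 13 members with a peak, in bp from the gene start with transcription to the right; coloured bars are the genes and the numbers at the right are the scores of the best sites in bits. Of the peaks, 8 lie upstream, 7 of them more than 1000 bp from the start, and ARR5 and ARR8 have theirs at 1033 and 988 bp inside the gene.

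The peaks of the members lay away from the gene starts. By their midpoints, 8 of the 13 lay upstream, 2 in introns, 2 in 3′ UTRs and 1 downstream, and none in a coding exon. Over all genes and the peaks in their windows (5581 gene-peak pairs), 54.6% lay upstream, 13.04% in introns, 4.98% in 3′ UTRs, 16.7% downstream and 4.73% in coding exons. The 8 upstream peaks lay 904 to 2703 bp from the start (median 1994 bp), and only that of IPT2 lay within 1000 bp. For all genes, the median of 3045 upstream pairs was 1234 bp and 43.1% lay within 1000 bp. Close to the limit of the window, the peaks of LOG1 and CKX1 lay just inside, at 2470 and 2703 bp. Just outside was a peak 3191 bp upstream of ARR9. Farther out, 1008 to 2337 bp past the windows, were peaks at 4 other members. They lay 4008 bp upstream of CKX4, 4077 bp upstream of ARR6, 4940 bp upstream of IPT8 and 3337 bp downstream of IPT4. The peak near ARR9, the closest relative of ARR8, reached into its window and held the site tttCTATATATGGtta (chr3:21105883-21105898) of 13.6 bits, above that of ARR8. The start nearest to it was that of AT3G57030.

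Most of the peaks were shared with neighbouring genes. Of the 13, 3 (LOG1, ARR1 and ARR8) lay in the window of no other protein-coding gene, 8 in that of 1 other and 2 in those of more. The nearest start was that of the member for 8 peaks (CKX1, CKX7, LOG1, LOG7, ARR1, ARR12, ARR5 and ARR8) and that of a neighbour for the peaks of IPT2, IPT6, LOG3, ARR2 and ARR17. The same counts over all peaks are not given here. All 3552 peaks gave 5581 gene-peak pairs, so that peaks in more than 1 window were not particular to the members. Which of the genes at a peak would respond to the complex was not tested.

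The member peaks held sites of 12.4 bits in the median (range 5.71 to 16.3), against 10.7 bits for all peaks. Of the 13, 9 were above the median of all peaks, and 4 (IPT6, ARR12, CKX1 and ARR8) were above 12.7 bits, the upper quartile. The difference was not seen with a shorter matrix. With a matrix of the 10 bp core alone, the median was 9.15 bits for the member peaks and 9.13 bits for all peaks. Within the 16 bp matrix, the 6 flanking positions gave the member sites 3.18 bits in the median (all peaks 2.56) and the core 8.93 bits (all peaks 8.55). Of the 13 member sites, 7 had flanks and 8 had cores above these medians of all peaks. ARR8 had a core of 7.50 bits, which differs from the CArG box at 2 positions, and flanks of 5.76 bits, a value reached also at IPT6 and the highest of all peaks. A full CArG box was present in 1 of 13 member peaks, against 15.96% of all peaks, and a box with at most 1 mismatch in 9 of 13, against 80.0%. The best site lay 27 bp from the centre in the median, against 17 bp for all peaks, and 6 of 13 were within 25 bp, against 68.4%. The GC content of the member peaks was 27.8% to 37.3% (median 31.0%), against a median of 32.5% for all peaks.

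**Figure D3:**
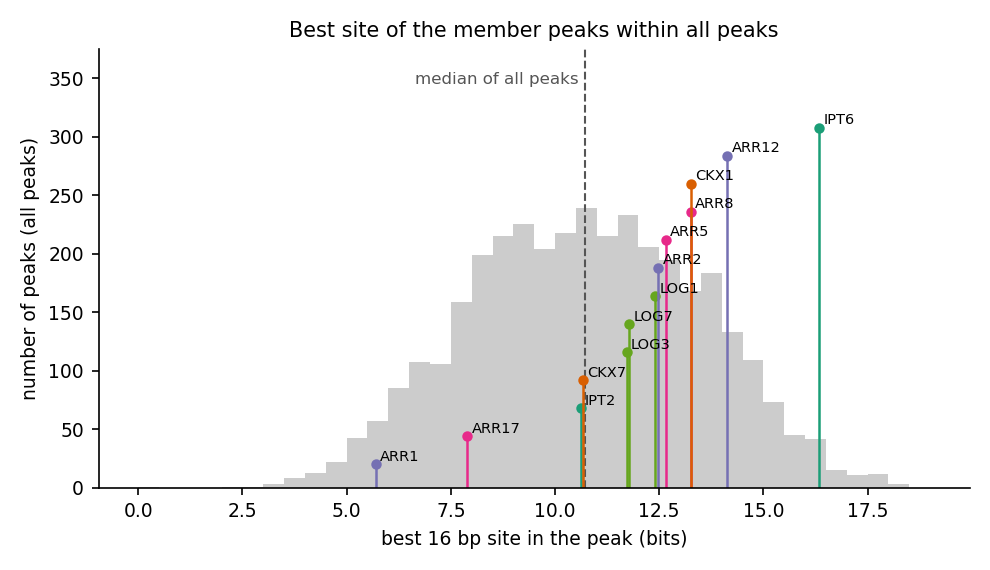
Score in bits of the best 16 bp site of each member peak (coloured stems, whose height has no meaning) over the histogram of the best scores of all 3552 peaks; the dashed line is the median of all peaks, 10.7 bits. ARR1 at 5.71 bits and ARR17 at 7.89 bits lie far to the left, CKX7 and IPT2 just left of the line, and the 9 others to the right of it.

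Good matches to the matrix were far more common in the windows than peaks. The windows of the 41 members held 170 sites above 7.81 bits, overlapping ones counted apart, of which 19 (11.2%) lay in a peak. All 19 lay in the member peaks counted above, so this share and those by score are not separate from that count. In the windows of all protein-coding genes 7.84% of 50230 sites did, and over the genome 7.35% of 59576 sites. The share rose with the score, which comes from a matrix built from these same peaks. From 7.81 to 10 bits, 5 of 121 sites lay in a peak (4.13%, genome 4.48%), from 10 to 12 bits 6 of 32 (18.8%, genome 9.83%) and from 12 to 14 bits 6 of 15 (40.0%, genome 23.1%). The windows held 1 site from 14 to 16 bits, at ARR12, and 1 above 16 bits, at IPT6, and both lay in a peak, where 47.8% and 63.4% of such sites in the genome did. The unbound members did not lack sites. IPT3, the isopentenyltransferase gene known to respond to nitrate, had no peak and a site of 13.6 bits in its 3′ UTR, and IPT4, IPT8, LOG8 and ARR11 had sites of 13.2, 12.4, 12.3 and 12.1 bits in no peak. Over the whole window, the best site scored 12.7 bits in the median for the 13 members with a peak. For the 28 without, it scored 10.5 bits. Leaving out sites in peaks, which affects only the 13, gave 10.2 bits for them. Members with and without a peak had a median window GC content of 34.6%, and the windows were 7041 bp and 6475 bp long in the median.

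**Figure D4:**
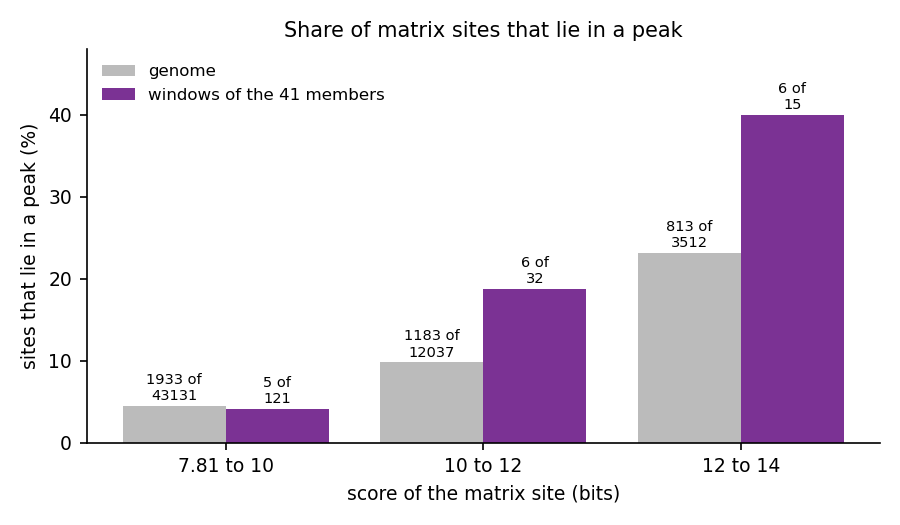
Share of matrix sites that lie in a peak, by score of the site, for the whole genome (grey) and for the windows of the 41 members (purple), with the counts above the bars. Both rise with the score, to 23.1% in the genome and 6 of 15 in the windows of the members at 12 to 14 bits.

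Full CArG boxes were mostly found without a peak. The windows of the members held 21, of which only that of LOG1 lay in a peak, against 595 of 7741 (7.69%) over the genome. In the windows of all protein-coding genes it was 534 of 6510 (8.20%). With the flanks included, the 20 boxes outside peaks scored 7.44 bits in the median, near the 7.78 bits of boxes outside peaks over the genome, where boxes in peaks scored 12.4 bits. The matrix was built from the peaks, so that this last difference is not independent of them. The sites below are full boxes in no peak, from the highest score to one of the lowest, with capitals as above.
LOG8 (5′ UTR): tatCCATTAATGGaag
ARR6 (downstream): tcgCCAAATTAGGtaa
CKX3 (intron): cggCCATTTTTGGtta
ARR6 (intron): aaaCCATTTTTGGtgg
They scored 12.3, 11.7, 8.71 and 5.04 bits. The boxes of CKX3 and of the ARR6 intron share the same core, and their flanks scored -3.29 and -6.96 bits.

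The other genes of the pathway were bound about as often as genes in general. Of 39 further genes, 9 (23.1%) had a peak, where 6.98 would at the share of genes of like window length. Among the phosphotransfer proteins, AHP1 had a peak in an intron (13.8 bits) and AHP4 1414 bp upstream (13.2 bits), out of 6 genes. PUP2, of the purine permeases that carry cytokinins, had peaks 361 and 1262 bp upstream (10.8 and 14.8 bits) and was the only 1 of the 7 transport genes with a peak. Of the cytokinin response factors, CRF4 had a peak downstream (11.2 bits) and CRF5 one 623 bp upstream (8.58 bits), out of 6. KMD3 and KMD4, F-box proteins that direct the breakdown of type-B ARR proteins, had peaks 2277 and 1601 bp upstream (10.1 and 7.90 bits). Of 8 other response regulators only ARR20 (12.05 bits) and of 7 other genes of metabolism only LOG6 (11.5 bits, in its 3′ UTR) had a peak. None of these 10 peaks held a full CArG box, and their places are those of the midpoints. Another gene had the nearest start for the peaks of KMD3 (177 bp), CRF5 (516 bp) and KMD4 (935 bp). The same held for the PUP2 peak 1262 bp upstream (1081 bp).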

How the data were processed

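The authors mapped reads with bowtie2 (TAIR10, nuclear chromosomes only), discarded duplicates with samtools, called peaks in each of the 3 replicates with MACS2 against input DNA, joined the replicates with MSPC, divided peaks that held subpeaks and resized each to 400 bp around its summit. Versions of these tools: not given in the sources used here. In the deposited file each peak has start and end positions only. Positions are counted from 1 here, and all peaks lay within the chromosomes of TAIR10.1, whose sequence and annotation were used. A start is the 5′ end of the gene entry. Bins of window length held equal numbers of protein-coding genes. The 16 bp matrix was fitted by expectation maximisation (30 iterations, 0 or 1 site per peak, started from a CArG box with TT and AA flanks), so that its form is not independent of this start. Scores of sites inside and outside peaks are not independent of the peaks it was fitted to. The matrix fit and the edges of windows and overlaps were tested on simulated data.

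All 41 members, then all genes of a list of other pathway genes with a peak, are named. Of the 40 on that list 39 carry their name in the annotation, and 1 was left out. The members and lists were chosen with earlier results of these data known. Because the replicates are combined in the file, no test was made, and differences are given as values. The alternatives were other windows, length matching, matrices, forms of the box and site thresholds. Protein identity of related genes was not computed. Python 3.11.15, numpy 2.4.6 and matplotlib 3.10.9 were used.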

Additional observations from a re-analysis of the deposited data

How the results depend on the processing

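The number of members with a peak was 13. It was 12 with 3000 bp upstream to the gene end (15.3% of all genes; 6.99 members at the share of like length), 17 with 5000 bp upstream to 1000 bp downstream (23.0%; 10.1) and 14 with any overlap of the peak (19.1%; 8.56). It was 5 with 1000 bp upstream to the gene end (9.91%; 4.70), a shorter window, and 8 with the closest start alone (11.7%), which gives each peak to a single gene. With 5000 bp upstream, IPT8, CKX4, ARR6 and ARR9 were added. The share at like window length was 19.7% with 10 bins and 19.9% with the 500 genes nearest in length. The median best score was 9.15 bits with the 10 bp core, whose scale differs, and 12.4 bits with a matrix built without the member peaks, which kept the best site of all 13. A box was found in 9 member peaks with at most 1 mismatch and in 7 with C or T second and A or G ninth. Sites in peaks numbered 25 of 315 at 1 site per 1000 bp and 15 of 60 at 1 per 5000 bp. Leaving out a replicate was not run, since the list combines them, and a list without heights does not show how strongly a site was bound.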
